A study of Mus musculus with 4 samples.

Results

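The unfolded protein response is the set of signals and genes by which a cell matches the folding capacity of its endoplasmic reticulum (ER) to the load of proteins entering it. The 32 genes described here were picked by symbol and cover its sensors, chaperones, folding enzymes, translocation and degradation factors. All 32 were present among the 55385 genes of the deposited matrix. They were sorted by the branch that is known to drive them: 10 ATF6-type genes, 15 XBP1-type genes, 4 ATF4-type genes and 3 sensors. Many members answer to more than 1 branch, so the types are names for groups and not measurements of a branch. A filter on low counts left 31 members among 9409 genes tested, and the remaining member, Trib3, had 91 UMIs (unique molecular identifiers, each standing for 1 counted RNA molecule) in all resting immature cDC1.

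The data are CITE-seq profiles, RNA and antibody barcodes counted together in each cell, of spleens from untreated, steady-state C57BL6 wild-type mice. Per the labels, DCs of 2 mice were enriched magnetically and sorted into a mix of mostly type 1 conventional dendritic cells (cDC1), fewer type 2 cells (cDC2) and unselected live cells. All classes therefore share genotype, strain and lack of treatment and differ by the gates drawn here; the labels used here give no age. The matrix held 2 libraries of 13822 and 17968 barcodes with 99617992 and 129565040 RNA UMIs, 61 barcode sequences occurred in both, and 12166 and 15976 cells were kept with a median of 6942 and 6885 UMIs. Since no label ties a library to its own mouse, the p-values reflect the spread of 2 libraries that may be technical repeats.

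Cells were classed by gates rather than clusters. A cDC1 had at least 3 UMIs of the XCR1 antibody and at most 2 of the CD172a antibody, which 13725 cells met. These were ordered by RNA of Ccr7, the chemokine receptor of migrating DCs, and Fscn1, an actin-bundling protein of mature DCs. Resting immature cDC1 had 0 UMIs of both and met neither the cycling nor the Ccr2-high rule below (3791 cells in library 1 and 6053 in library 2). Ccr7-low cDC1 had 1 or 2 Ccr7 UMIs (412 and 507) and Ccr7-positive Fscn1-low cDC1 at least 3 (153 and 176), both with fewer than 3 of Fscn1. Intermediate cDC1 had at least 3 of both (24 and 24), and late mature cDC1 at least 10 Ccr7 and 5 Fscn1 UMIs (75 and 95). Among cells with 0 of both, cycling cDC1 had at least 6 UMIs over 12 proliferation genes (884 and 1054). Ccr2-high cDC1 had at least 3 Ccr2 UMIs and were not cycling (107 and 147).

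Outside cDC1, immature cDC2 (1024 and 1041 cells), late mature cDC2 (18 and 13), plasmacytoid DCs or pDC (67 and 55), B cells (103 and 113) and plasma cells (33 and 36, at least 20 Jchain UMIs each) were gated. Among other limits, cDC2 had at least 5 UMIs of the CD172a antibody, pDC at least 5 of Siglech and B cells at least 5 of Cd79a. The resting cDC1 gate matched its markers: 8 cDC1 marker genes summed to 5439 to 5870.1 CPM (UMIs of a gene scaled to an equal total of RNA UMIs in every class and library) in resting immature cDC1 with none at 0, against 23.97 to 25.1 for 7 cDC2 markers. Other classes were less clean. In pDC, pDC markers summed to 15853 to 17761 and cDC1 markers to 3972 to 4334. In B cells, B cell markers summed to 7655 to 8254 and cDC2 markers to 834 to 846. Markers of mature DCs summed to 11378 to 12001 in late mature cDC1 and 89.7 to 92.4 in resting cells. That list includes the gate genes Ccr7 and Fscn1, so part of this contrast was set by the gates and is no support for them. Levels are given for library 1 and then library 2. Tests are edgeR quasi-likelihood tests on UMIs summed per class and library, with the library as a block and Benjamini-Hochberg adjustment over all genes tested, called at 0.05, and a log2 difference of 1 is a doubling.

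In the ER membrane, the sensor IRE1 (gene Ern1) splices Xbp1 RNA so that it encodes an active transcription factor, ATF6 is cut in the Golgi to release another, and PERK (gene Eif2ak3) slows translation while favouring translation of ATF4. XBP1 and ATF6 are known to raise chaperones, translocation and degradation genes, and ATF4 to raise Ddit3, Trib3 and the feedback phosphatase subunit Ppp1r15a. Plasma cells depend on XBP1 to secrete antibody. In mouse cDC1, IRE1 is known to be active without added stress, and XBP1 to bear on their ER structure and antigen presentation. The counting here reads the 3′ ends of transcripts, so it gives total Xbp1 RNA and does not tell its spliced and unspliced forms apart.

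Promoters of the members were searched for the DNA element through which ATF6 and XBP1 are known to act, the ER stress response element (ERSE, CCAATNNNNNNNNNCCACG). Its 8 copies are shown because the chaperone genes that the results turn on hold most of them. The search covered 250 bases before to 50 after each start site in RefSeq's table for GRCm38.p6, on both strands. A window was found for 27 of 32 members, and Manf, Hyou1, Derl1, Sec61a1 and Atf6 had none in that table. The ERSE was found in 7 of the 27 members (25.9%) and in 37 of 27025 genes in all (0.137%). Of these, 5 were ATF6-type genes of 8 with a window, and 2 were XBP1-type genes of 13. The 2 conserved ends of the element are in capitals, and each sequence runs 5′ to 3′ along the gene's strand. In Creld2, Derl3 and the copy of Hsp90b1 nearer its start site the element lies on the opposite strand and reads as its reverse complement.
Hspa5, chr2:34772009-34772059, plus strand: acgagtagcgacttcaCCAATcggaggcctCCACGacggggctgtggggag
Hsp90b1, farther copy, chr10:86705622-86705672, minus strand: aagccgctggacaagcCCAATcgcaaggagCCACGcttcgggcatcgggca
Hsp90b1, nearer copy, chr10:86705517-86705567, minus strand: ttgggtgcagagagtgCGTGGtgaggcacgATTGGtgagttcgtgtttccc
Creld2, chr15:88819504-88819554, plus strand: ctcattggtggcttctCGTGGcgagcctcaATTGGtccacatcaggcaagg
Derl3, chr10:75893226-75893276, plus strand: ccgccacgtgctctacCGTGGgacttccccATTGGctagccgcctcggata
Pdia6, chr12:17266475-17266525, plus strand: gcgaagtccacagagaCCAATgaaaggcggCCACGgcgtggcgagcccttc
Dnajc3, chr14:118937811-118937861, plus strand: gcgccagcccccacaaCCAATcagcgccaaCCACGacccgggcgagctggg
Syvn1, chr19:6046516-6046566, plus strand: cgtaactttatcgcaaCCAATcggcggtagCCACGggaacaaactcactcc

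The element began 44 to 212 bases before the start site in these copies. A shorter variant, ERSE-II (ATTGGNCCACG), was found in Herpud1 and Dnajb11 (7.41% of members with a window, 0.044% of all genes), and the Herpud1 copy is shown because this gene moved against most members.
Herpud1, ERSE-II, chr8:94386361-94386403, plus strand: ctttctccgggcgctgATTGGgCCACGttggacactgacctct
The XBP1 site TGACGTGG was in 0 of the 27 members and 0.714% of genes, and the ATF4-type site TGATGNAA in Herpud1 and Trib3 (7.41% against 4.51% of genes). A match is a description of letters in this window and does not show that a factor binds there.

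In resting immature cDC1 the members were led by the chaperone genes. Hspa5, which encodes BiP, the main ER chaperone that also keeps the sensors silent, stood at 1180.4 and 1019.6 CPM. Hsp90b1 (GRP94, a chaperone of Toll-like receptors and integrins) stood at 780.0 and 702, and Sec61b, a subunit of the channel through which new proteins enter the ER, at 809.8 and 755. The sensor RNAs were scarce: Ern1 at 11.02 and 11.8, Eif2ak3 at 9.74 and 8.94 and Atf6 at 43.1 and 43.2. Counts of 3′ ends do not grow with transcript length, so these levels can be set side by side between genes, with capture differences between transcripts not measured.

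**Figure D1:**
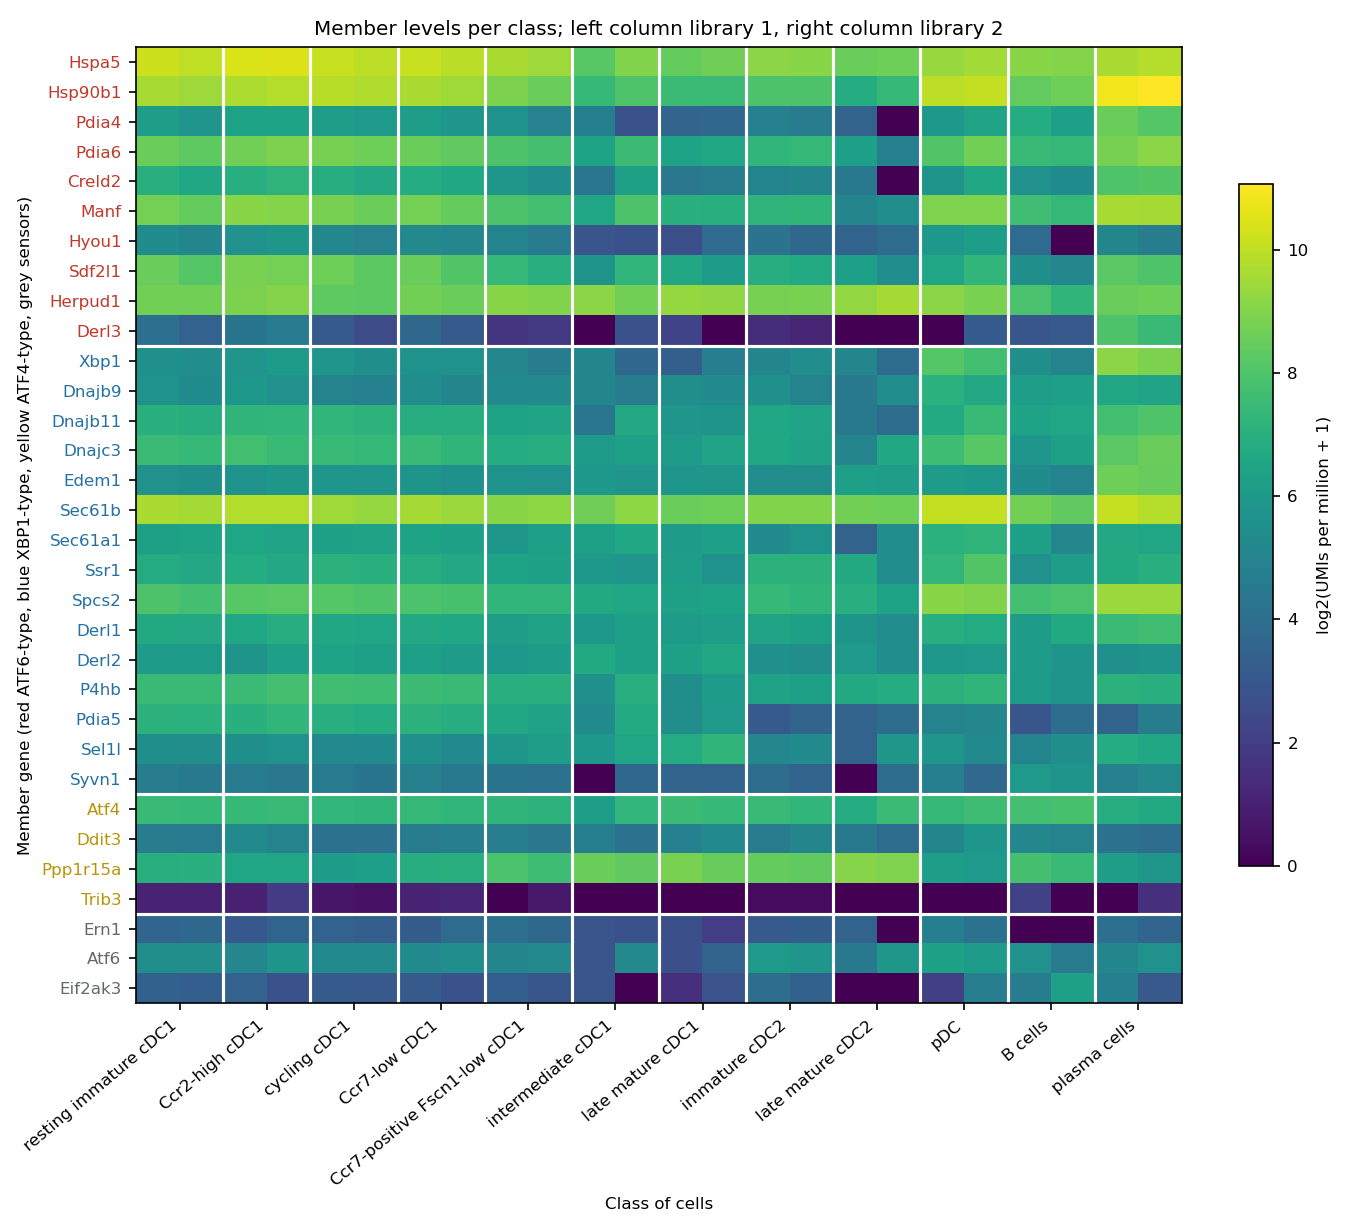
Levels of the 32 members (rows, grouped by type) in 12 classes (column pairs, library 1 left and library 2 right), as log2(CPM + 1) in colour. Levels of the chaperones are higher in immature cDC1 and plasma cells than in mature DCs and immature cDC2, for example Hspa5 at 1180.4 and 1019.6 CPM in resting and 344 and 404 in late mature cDC1.

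Late mature cDC1 held less RNA for most ER chaperones and folding enzymes than resting immature cDC1. Of 31 members tested, 21 were lower and 4 higher, where 47.6% of all 9409 genes were called in either direction. The members' median log2 difference was -1.17, against -0.18 over all genes. By type, 9 of 10 ATF6-type genes were lower and 1 higher, and 10 of 15 XBP1-type genes were lower and 2 higher. Among 38 other ER folding and translocation genes tested, 21 were lower and 5 higher.

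BiP gave the plainest view of this fall. Hspa5 was at 1180.4 and 1019.6 CPM in resting and 344 and 404 in late mature cDC1 (log2 -1.48, SE 0.13, adjusted p = 3.01e-13). Hsp90b1 went from 780.0 and 702 to 186 and 187 (log2 -1.92, SE 0.13, adjusted p = 5.80e-16). For neither gene did the 2 groups of libraries overlap, which held for 77.1% of all genes. In UMIs per cell, Hspa5 was at 10.0 and 7.91 in resting and 2.47 and 2.82 in late mature cells, whose median depth was lower (6514 and 6199 against 8698 and 7772 UMIs).

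Disulfide enzymes and BiP's partners fell as well. Pdia4, a protein disulfide isomerase, was at 71.96 and 53.1 in resting and 11.2 and 12.1 in late mature cDC1 (log2 -2.33, SE 0.32, adjusted p = 7.80e-08). Creld2, an ER protein induced by ER stress, was at 121 and 99.4 against 20.5 and 24.1 (log2 -2.21, SE 0.26, adjusted p = 1.94e-09). The falls of Pdia6 (log2 -1.87), P4hb (-1.56), Manf (-1.56), Sdf2l1 (-1.88) and the BiP nucleotide exchange factor Hyou1 (-1.80) lay between those of Hspa5 and Creld2. Derl3, a derlin that helps extract misfolded proteins, rested on 2 UMIs in late mature cells against 976 in resting ones, a ratio of 0.135 with a 95% counting interval of 0.0163 to 0.489 (log2 -2.83, SE 0.78, adjusted p = 0.00245). That call was lost when the step thresholds were doubled (adjusted p = 0.139) or the XCR1 gate was raised to 6 UMIs (0.376), and the log2 difference was -6.04 without library 1 and -1.76 without library 2.

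Xbp1 itself was also lower, at 9.30 and 25.6 against 46.2 and 42.5 (log2 -1.20, SE 0.34, adjusted p = 0.00298). The co-chaperone Dnajb11 (log2 -1.17), Dnajc3, which also restrains PERK (-1.15), and the signal peptidase subunit Spcs2 (-1.43) fell by amounts near that of Xbp1. Dnajb9, an XBP1-driven co-chaperone that acts back on IRE1, was at 50.1 and 41.2 in resting and 42.8 and 39.2 in late mature cells and did not pass the test (log2 -0.08, adjusted p = 0.783). Edem1, which hands misfolded glycoproteins to degradation, was at 47 and 44.5 and 55.8 and 57.3, likewise not past it (log2 0.37, adjusted p = 0.0982).

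The 4 members that rose were 3 degradation genes and a phosphatase subunit. Sel1l, the adaptor of the ubiquitin ligase that removes misfolded ER proteins, was at 44.9 and 43.8 in resting and 112 and 151 in late mature cDC1 (log2 1.65, SE 0.16, adjusted p = 1.60e-11). Its partner ligase Syvn1 went the other way, from 24.8 and 21.2 to 11.2 and 10.5 (log2 -1.01, adjusted p = 0.0179). Herpud1, a scaffold of the same ligase and otherwise an ATF6-type gene, rose from 412 and 412 to 629 and 606 (log2 0.65, SE 0.11, adjusted p = 4.39e-06). Derl2 rose least (log2 0.48, adjusted p = 0.0107), and its call was lost without the filter on low counts (adjusted p = 0.150) and with the XCR1 gate at 6 UMIs (0.972).

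Ppp1r15a, also called GADD34, directs a phosphatase that ends the translation block set by PERK and related kinases. It was at 125 and 131 in resting and 454 and 357 in late mature cDC1 (log2 1.72, SE 0.12, adjusted p = 1.23e-15). The other ATF4-type genes did not pass: Atf4 was at 172 and 169.5 against 194 and 170.2 (log2 0.15, adjusted p = 0.385) and Ddit3, the death-linked factor CHOP, at 24.9 and 22.9 against 27.9 and 37.7 (log2 0.55, adjusted p = 0.0801). Ddit3 did pass in cells of 3000 to 15000 UMIs (adjusted p = 0.0270), in the purer classes (0.0438) and with the XCR1 gate at 1 UMI (1.26e-05), and Atf4 with that gate (7.76e-05). Trib3 had 0 UMIs in late mature cells, where 3 UMIs would be 2.50 CPM, more than its 1.12 and 1.17 in resting cells, so no difference was detectable. Of 16 other ATF4 target genes tested, 3 were higher and 4 lower. Of the 13 genes listed for immediate early and heat shock responses, which move with handling and share inputs with Ppp1r15a, 5 were higher and 5 lower, and their part in the result was not tested.

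Among the sensors, Atf6 fell from 43.1 and 43.2 to 5.58 and 10.5 (log2 -2.31, SE 0.37, adjusted p = 1.42e-06). Ern1 was at 11.02 and 11.8 against 5.58 and 3.01 (log2 -1.39, SE 0.58, adjusted p = 0.0452), a call resting on 5 UMIs in the late mature cells that was lost under 7 of the alternatives, DESeq2 among them (adjusted p = 0.0902), and whose log2 difference without library 2 was -0.72. Eif2ak3 was at 9.74 and 8.94 against 1.86 and 6.03 and did not pass (log2 -1.09, adjusted p = 0.216). Outside the members, the ER reductase Dnajc10 rose from 22.8 and 23.5 to 85.6 and 78.3 (log2 1.88, adjusted p = 5.76e-10). Rpn1, a subunit of the glycosylation complex, fell from 107 and 97.4 to 14.9 and 31.6 (log2 -2.01, adjusted p = 8.04e-09), and the signal peptidase subunit Spcs3 from 57.9 and 51.4 to 20.5 and 6.03 (log2 -2.05, adjusted p = 2.16e-07). The stress factor Nupr1 rested on 10 UMIs in late mature cells, at 3.72 and 12.1 against 0.778 and 0.639 (log2 3.59, adjusted p = 0.00117). Its level in resting cells was too low to pass the filter on low counts there.

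**Figure D2:**
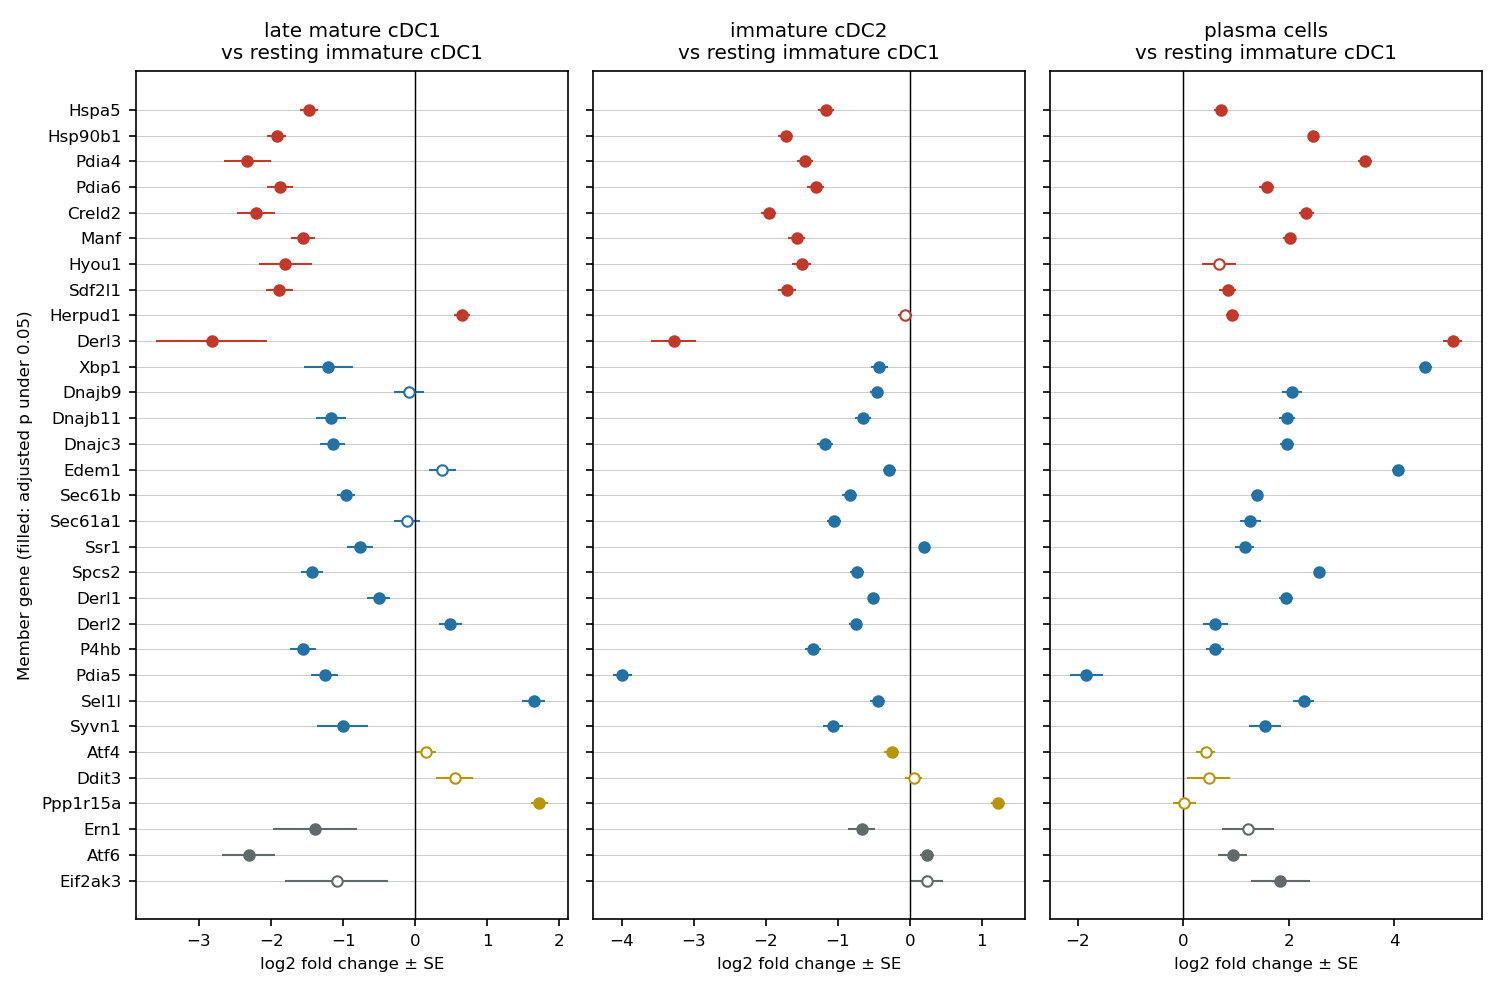
Log2 difference from resting immature cDC1 (points) with its standard error (bars) for the 31 tested members in late mature cDC1, immature cDC2 and plasma cells; filled points passed an adjusted p of 0.05, and colours give the type (red ATF6, blue XBP1, yellow ATF4, grey sensors). Most chaperones lie left of 0 in the first 2 panels and right of 0 in plasma cells, and Ppp1r15a lies right of 0 in late mature cDC1 (log2 1.72) and immature cDC2 (1.23).

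Markers of other cells differed between these classes too. Red pulp macrophage markers summed to 42.4 to 48.9 CPM in resting and 201 to 214 in late mature cDC1, cDC2 markers to 23.97 to 25.1 and 122 to 130.3, and cDC1 markers to 5439 to 5870.1 and 2192 to 2742. Slc40a1 of the macrophage list and Clec4a4 and Mgl2 of the cDC2 list had 0 UMIs in late mature cDC1, so those sums rested on the other listed genes. The part of these sums in the result was not tested. With cells holding B, T or plasma cell RNA removed (purer classes), an alternative chosen after seeing the data, 26 members were called in place of 25. That removal did not select on macrophage, cDC2 or cDC1 RNA.

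The steps between were set against resting cells in the same way. In Ccr7-low cDC1, 1 of 31 members was called, against 10.5% of all genes. This was Dnajb9, at 41.9 and 33.1 against 50.1 and 41.2 in resting cells (log2 -0.37, SE 0.091, adjusted p = 0.00362), and the call was lost without the library block (adjusted p = 0.160) and with DESeq2 (0.0537). Hspa5 was still at 1131 and 967 (log2 -0.15, adjusted p = 0.415). None of the sensors and ATF4-type members was called: Atf4 was at 164 and 154, Ddit3 at 24.3 and 25.8, Ppp1r15a at 118 and 120.4, Ern1 at 8.65 and 13.5, Atf6 at 39.05 and 42.4 and Eif2ak3 at 7.95 and 5.95. The serine synthesis gene Psat1, an ATF4 target outside the members, was higher (log2 0.70, adjusted p = 0.00161), a call lost with DESeq2 (adjusted p = 0.0945).

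In Ccr7-positive Fscn1-low cDC1, 17 members were lower and 3 higher, where 32.9% of all genes were called. The members' median log2 difference was -0.40 against -0.05 over all genes. Derl3 was at 2.19 and 2.68 against 15.4 and 10.2 (log2 -2.30, SE 0.46, adjusted p = 9.24e-05), Sdf2l1, part of an ER chaperone complex, at 163 and 127 against 365 and 282 (log2 -1.09, SE 0.14, adjusted p = 1.93e-08) and Creld2 at 57.6 and 42.2 against 121 and 99.4 (log2 -1.07, SE 0.14, adjusted p = 5.98e-08). Hsp90b1 (log2 -0.73), Manf (-0.71) and Hspa5 (-0.48) were lower by less. Of the 4 members higher in late mature cells, 3 were also higher here: Ppp1r15a at 241 and 195 (log2 0.83, SE 0.12, adjusted p = 1.63e-07), Sel1l at 56.9 and 70.3 (log2 0.59, SE 0.14, adjusted p = 8.58e-04) and Herpud1 at 543 and 504 (log2 0.41, SE 0.10, adjusted p = 0.00169).

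No sensor was called at this step, with Ern1 at 15.3 and 12.1, Atf6 at 32.1 and 35.5 and Eif2ak3 at 8.76 and 6.70, nor were Atf4 (149 and 140.0) and Ddit3 (25.5 and 20.1). Dnajc10 was higher (log2 1.59, adjusted p = 1.99e-11), while Txndc5 (log2 -0.86), Rpn1 (-0.73) and the translation inhibitor Eif4ebp1 (-0.75) were lower, the Eif4ebp1 call being lost with DESeq2 (adjusted p = 0.0540). With the XCR1 gate at 6 UMIs, 10 members were called in place of 20, and Sel1l was not among them (adjusted p = 0.0630). T cell markers summed to 93.4 to 150.1 CPM here against 7.84 to 8.003 in resting cells, and erythroid markers to 263 to 503 against 79.4 to 133. Their part in the result was not tested. In the purer classes, whose removal did not select on erythroid RNA, 19 members were called.

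Intermediate cDC1, with 24 cells a library, had 13 members lower and 1 higher, against 18.5% of all genes called, with a median of -0.99 against -0.34 (-0.43 without library 1). Hspa5 was at 286 and 503 (log2 -1.46, SE 0.16, adjusted p = 2.32e-09) and Hsp90b1 at 169 and 261 (log2 -1.77, SE 0.18, adjusted p = 2.54e-10). Pdia4 was at 26.04 and 5.92 (log2 -2.0, SE 0.56, adjusted p = 0.00758), and its log2 difference was -3.06 without library 1 and -1.38 without library 2. Sdf2l1, at 52.1 and 154 (log2 -1.61, SE 0.28, adjusted p = 1.86e-05), likewise went from -0.80 without library 1 to -2.72 without library 2. Hyou1 rested on 2 UMIs against 2869 (ratio 0.171, 95% counting interval 0.0207 to 0.618), and its call was lost with DESeq2 (adjusted p = 0.0862) and in cells of 3000 to 15000 UMIs (0.0512). Intermediate cells summed 1582 to 3286 CPM of cDC1 markers against 5439 to 5870.1 in resting cells, 124 to 166 against 23.97 to 25.1 of cDC2 markers and 130.2 to 234 against 42.4 to 48.9 of red pulp macrophage markers, and their part in the result was not tested. Cd209a, Clec4a4, Mgl2 and Dtx1 of the cDC2 list and C1qa and C1qb of the macrophage list had 0 UMIs in intermediate cells.

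Ppp1r15a was the member that rose in intermediate cDC1, at 384 and 326 (log2 1.47, SE 0.19, adjusted p = 5.62e-08). Atf4 was at 71.6 and 159.9 (log2 -0.54, adjusted p = 0.132), Ddit3 at 26.04 and 17.8 (log2 -0.13, adjusted p = 0.911) and Atf6 at 6.51 and 35.5 (log2 -0.99, adjusted p = 0.199), none past the threshold. Ern1 rested on 2 UMIs and Eif2ak3 on 1, so neither could be read. Among genes outside the members, Dnajc10 was higher (log2 1.62), a call lost in cells of 3000 to 15000 UMIs (adjusted p = 0.0837), and Rpn1 (-1.87), Ddost (-1.22) and Ssr3 (-1.17) were lower.

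**Figure D3:**
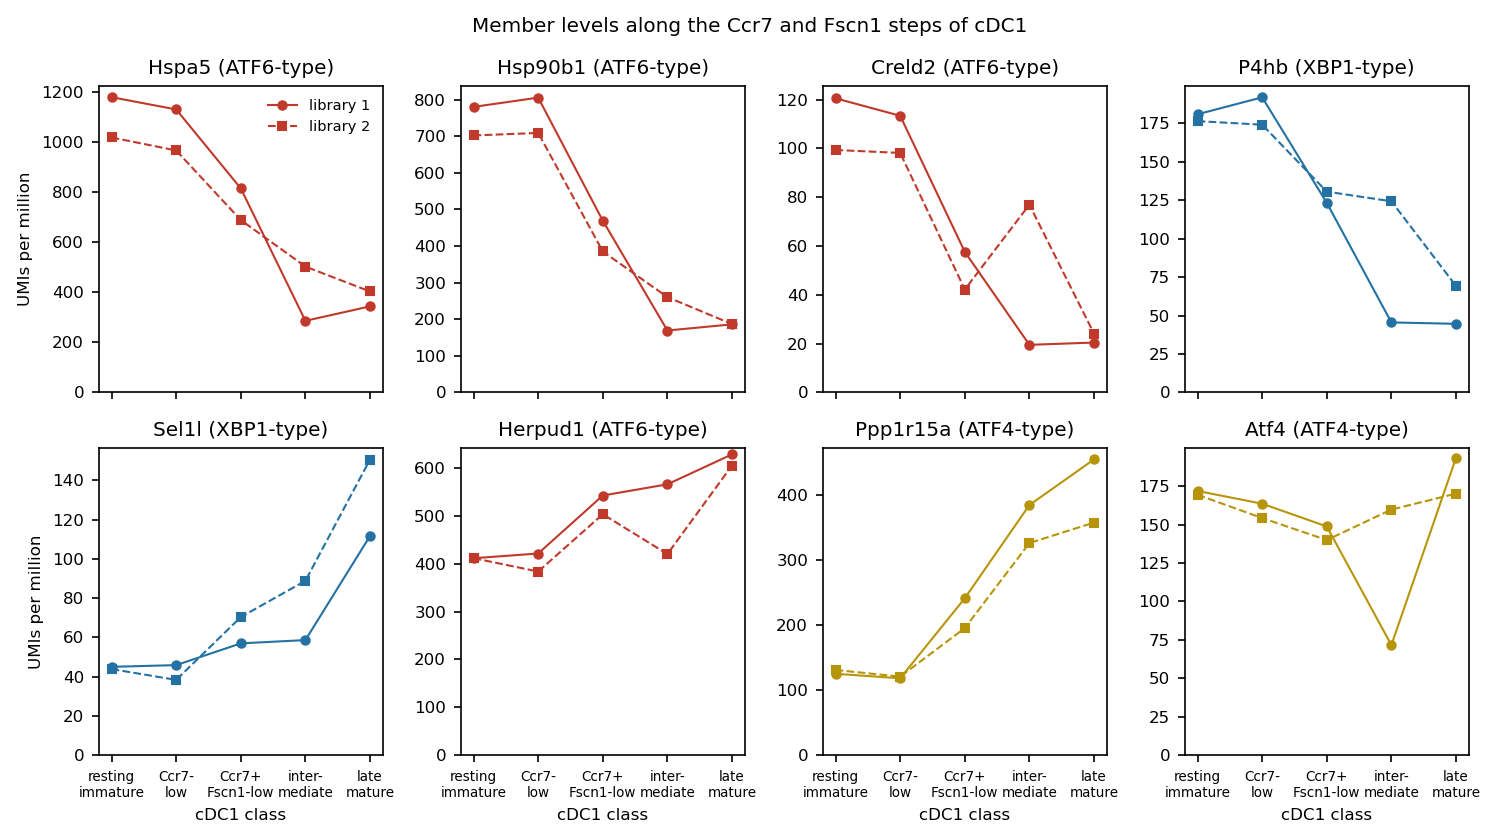
Levels (CPM) of 8 members (1 panel each) along the 5 Ccr7 and Fscn1 steps of cDC1, with library 1 as circles and library 2 as squares. Hspa5, Hsp90b1, Creld2 and P4hb are level from resting to Ccr7-low cells and lower from the Ccr7-positive step on, while Ppp1r15a climbs from 118 and 120.4 in Ccr7-low to 454 and 357 in late mature cells.

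In Ccr2-high cDC1, marked by the chemokine receptor CCR2, a single member of 31 was called, against 4.85% of all genes: Ppp1r15a, at 91.1 and 88.7 against 125 and 131 (log2 -0.61, SE 0.14, adjusted p = 0.00456). Hspa5 was at 1373 and 1423 against 1180.4 and 1019.6 in resting cells, a difference that did not pass (log2 0.25, SE 0.11, adjusted p = 0.219). Manf (log2 0.35, adjusted p = 0.072) and Hyou1 (log2 0.45, adjusted p = 0.107) did not pass either. Scaling by library totals alone, an alternative added after seeing the data, gave 5 members higher and 1 lower, and the Ppp1r15a call was lost with the XCR1 gate at 6 UMIs (adjusted p = 0.361) and with a Ccr2 threshold of 5 (0.0737).

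Atf4, Ddit3 and the 3 sensors were not called in Ccr2-high cells, with Atf4 at 169.8 and 179, Ddit3 at 36.8 and 29.8, Ern1 at 7.16 and 10.9, Atf6 at 33.8 and 52.4 and Eif2ak3 at 10.2 and 5.82. Of the other ATF4 targets, Psat1 (log2 0.96) and Eif4ebp1 (0.55) were higher and the amino acid transporter subunit Slc3a2 (-0.42) lower. All 3 of these calls were lost without the library block (adjusted p = 0.0844, 0.104 and 0.0679).

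Cycling cDC1 had 16 members lower and 2 higher, where 56.0% of all genes were called and the median log2 difference was -0.22 against -0.08 over all genes. Scaled by library totals alone, 9 were lower and 6 higher, so the balance of directions in this comparison depends on scaling. The clearest falls were in Derl3, at 7.87 and 4.90 against 15.4 and 10.2 (log2 -1.15, SE 0.14, adjusted p = 2.16e-09), Ppp1r15a, at 68.5 and 75.7 against 125 and 131 (log2 -0.97, SE 0.10, adjusted p = 1.01e-10), and Dnajb9, at 30.2 and 28.02 against 50.1 and 41.2 (log2 -0.79, SE 0.072, adjusted p = 1.74e-12). Herpud1 (log2 -0.54), Ddit3 (-0.61) and Atf4 (-0.30) were lower too, and the Atf4 call was lost under library totals alone (adjusted p = 0.195) and in cells of 3000 to 15000 UMIs (0.172). Ern1 (log2 -0.38) and Atf6 (-0.35) were lower, the Ern1 call being lost with DESeq2 (adjusted p = 0.201) and library totals alone (0.1001), and Eif2ak3 did not pass (log2 -0.39, adjusted p = 0.0678).

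Hspa5, at 1113 and 983 in cycling and 1180.4 and 1019.6 in resting cells, did not pass (log2 -0.21, SE 0.10, adjusted p = 0.0751), and Hsp90b1 did not either (log2 0.13, adjusted p = 0.257). The translocon-associated Ssr1 (log2 0.17) and Derl2 (0.15) were higher by small amounts, and both calls were lost without the library block (adjusted p = 0.252 for Ssr1 and 0.226 for Derl2). The serine synthesis genes Psat1, at 41.05 and 39.8 against 12.6 and 9.90 (log2 1.71, adjusted p = 1.29e-18), and Phgdh (log2 0.71) were higher while Atf3 (-0.87) and Atf5 (-0.74) were lower, the Phgdh and Atf5 calls being lost with DESeq2 (adjusted p = 0.0807 and 0.0776). Neutrophil markers summed to 342 to 375 CPM in cycling and 27.9 to 33.4 in resting cells and erythroid markers to 364 to 375 and 79.4 to 133. Their part in the result was not tested.

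Immature cDC2 carried lower levels of nearly the whole set than resting immature cDC1. Of 31 members, 25 were lower and 3 higher, where 56.1% of all genes were called, and the median log2 difference was -0.75 against -0.05. Of 15 XBP1-type genes, 14 were lower, as were 9 of 10 ATF6-type genes, and library totals alone gave 22 lower and 3 higher. The median depth of these cells was 3820 and 3699 UMIs, below that of resting cDC1.

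Pdia5, a protein disulfide isomerase, differed most: it was at 136 and 131 in resting cDC1 and 7.84 and 11.1 in immature cDC2 (log2 -3.99, SE 0.13, adjusted p = 2.91e-27). Derl3 was at 15.4 and 10.2 against 1.72 and 1.23 (log2 -3.28, SE 0.31, adjusted p = 4.50e-12), Creld2 at 121 and 99.4 against 30.4 and 33.2 (log2 -1.96, SE 0.11, adjusted p = 1.36e-19) and Hsp90b1 at 780.0 and 702 against 254 and 253 (log2 -1.72, SE 0.10, adjusted p = 3.30e-18). Hspa5 was at 563 and 545 in immature cDC2 (log2 -1.16, SE 0.11, adjusted p = 1.41e-12). Xbp1 was at 32.6 and 42.1 against 46.2 and 42.5 (log2 -0.42, SE 0.12, adjusted p = 0.00231), with library 2 nearly equal in both classes.

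Ppp1r15a was higher in immature cDC2, at 351 and 326 against 125 and 131 in resting cDC1 (log2 1.23, SE 0.10, adjusted p = 6.36e-14). Ssr1 (log2 0.20) and Atf6 (0.24) were higher by small amounts. Both calls were lost without the library block (adjusted p = 0.172 for Ssr1 and 0.113 for Atf6) and without the filter on low counts (0.1004 and 0.128). Atf4 was lower (log2 -0.25, adjusted p = 0.0342), and Herpud1 was at 439.6 and 449.6 and did not pass (log2 -0.06, adjusted p = 0.607). Of 16 other ATF4 targets, 7 were higher and 7 lower. Vegfa, at 20.8 and 19.2 against 0.654 and 0.660 (log2 4.70), Ddit4 (log2 4.23), the cystine transporter Slc7a11 (3.75) and Nupr1 (3.25) were among the higher ones. All of these were too low in resting cDC1 to pass the filter on low counts there. They were tested because other classes held more of them, so their higher direction is no support for a change of ATF4 targets. Immediate early and heat shock genes summed to 9409 to 11017 CPM in immature cDC2 and 5635 to 6174 in resting cDC1, with 8 of 13 higher, and their part in the Ppp1r15a result was not tested.

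Late mature cDC2 numbered 31 cells, which limits what could be called. Against immature cDC2, 4 members were lower and 1 higher, where 10.7% of all genes were called, and the median log2 difference was -0.68 against -0.30. Manf, a secreted factor that binds BiP, was at 31.6 and 42.5 against 145 and 150.4 (log2 -2.10, SE 0.54, adjusted p = 0.00573), Hsp90b1 at 116 and 170.1 against 254 and 253 (log2 -0.93, SE 0.30, adjusted p = 0.0386) and Pdia6 at 73.8 and 28.3 against 156 and 162 (log2 -1.61, SE 0.48, adjusted p = 0.0221). Dnajb11 rested on 3 UMIs, a ratio of 0.205 with a 95% counting interval of 0.0421 to 0.601 (log2 -2.35, adjusted p = 0.0172). Herpud1 was higher, at 622 and 751 against 439.6 and 449.6 (log2 0.54, SE 0.18, adjusted p = 0.0402).

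Each of these 5 calls but that of Manf and Pdia6 was lost under at least 1 alternative. Hsp90b1 lost it with RLE (relative log expression) size factors, another scaling within edgeR (adjusted p = 0.0822). Dnajb11 lost it with DESeq2 (0.0651) and Herpud1 without the library block (0.0532). Without library 1 the Pdia6 log2 difference was -2.75. Hspa5, at 379 and 397 against 563 and 545, did not pass (log2 -0.58, SE 0.22, adjusted p = 0.0823), nor did Ppp1r15a, at 537 and 482 (log2 0.54, SE 0.20, adjusted p = 0.0855). Derl3 and Eif2ak3 had 0 UMIs, where 3 UMIs would be 18.1 CPM, more than either showed in immature cDC2. Outside the members, Atf3 was lower (log2 -1.26), as were Nars and Cebpb, which rested on 3 and 4 UMIs in late mature cells, and Nupr1 was at 221 and 0, so that its higher call rested on library 1.

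Whether maturation moved the members alike in cDC1 and cDC2 was tested as the difference of the 2 log2 differences. Of 31 members, 4 differed, where 4.91% of all genes did. Hspa5 fell by more in cDC1, by 1.48 on the log2 scale, than the change of -0.58 in cDC2 (difference -0.90, SE 0.27, adjusted p = 0.0418). P4hb was lower in late mature cDC1 (log2 -1.56) and at 80.9 and 77.8 in immature and 105 and 113 in late mature cDC2 (log2 0.39), a difference of -1.95 (SE 0.48, adjusted p = 0.0086). Ppp1r15a differed by 1.19 (SE 0.22, adjusted p = 2.11e-04), having started in cDC2 from the higher level given above. Sel1l differed by 1.99 (SE 0.61, adjusted p = 0.0456), a call lost with RLE size factors (adjusted p = 0.0565), and the value was 3.27 without library 2.

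The Hspa5 difference was -0.24 with doublets kept (adjusted p = 0.667) and missed the threshold in cells of 3000 to 15000 UMIs (0.125) and in the purer classes (0.0611). The P4hb difference was -1.09 with doublets kept (adjusted p = 0.0665). Among other pathway genes, Slc3a2 (difference 0.82) was above 0 and Ssr3 (-1.35) below it, the Ssr3 call being lost under 5 alternatives, doublets kept among them (adjusted p = 0.319). Cebpb and Cebpg, also called, had 4 and 0 UMIs in late mature cDC2.

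Set directly side by side, late mature cDC1 exceeded late mature cDC2 in 2 members and fell below in 0, where 4.35% of all genes were called. These were Sel1l, at 112 and 151 against 10.5 and 56.7 (log2 2.43, SE 0.56, adjusted p = 0.00431), and Manf, at 128 and 124 against 31.6 and 42.5 (log2 2.11, SE 0.56, adjusted p = 0.0167). The Sel1l log2 difference was 1.74 without library 1 and 3.79 without library 2, and the Manf call was lost under library totals alone (adjusted p = 0.0715). The degradation ATPase Vcp was higher in late mature cDC1 (log2 1.55, adjusted p = 6.24e-06) and Slc7a11, on 3 UMIs against 7, and Nupr1, which rested on library 1, lower. Hspa5 (log2 0.27, adjusted p = 0.655) and Ppp1r15a (log2 -0.04, adjusted p = 0.975) did not pass.

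In pDC, Xbp1 RNA was higher and Hspa5 RNA lower, while the members' median lay near that of all genes. Against resting immature cDC1, 4 members were higher and 8 lower, where 31.1% of all genes were called, with a median of -0.06 against -0.02. All 4 higher members were XBP1-type and 5 of the 8 lower ones ATF6-type. Of the XBP1-type genes 2 were lower and 9 not called, and of the ATF6-type genes 5 were not called. Scaling by library totals alone turned this balance to 9 higher and 4 lower, RLE size factors gave 5 higher and 6 lower, and the median was 0.31 and 0.09 under these.

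Xbp1 was at 282 and 210.1 in pDC against 46.2 and 42.5 in resting cDC1 (log2 2.13, SE 0.20, adjusted p = 7.67e-12). Its target Dnajb9 was at 135 and 101 against 50.1 and 41.2 (log2 1.02, SE 0.20, adjusted p = 9.07e-05) and Spcs2 at 545 and 504 against 250.2 and 217 (log2 0.81, SE 0.12, adjusted p = 6.36e-07). Ssr1 was higher as well (log2 0.62), a call lost without the filter on low counts (adjusted p = 0.0783). On the other side, Hspa5 was at 660.0 and 731 (log2 -1.03, SE 0.13, adjusted p = 1.79e-08), Sdf2l1 at 91.9 and 156 (log2 -1.79, SE 0.21, adjusted p = 5.01e-09) and Pdia5 at 29.6 and 33.6 (log2 -2.45, SE 0.30, adjusted p = 6.32e-09). Without library 1 the Sdf2l1 difference was -1.17.

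Ppp1r15a was lower in pDC, at 72.2 and 63.04 (log2 -1.27, SE 0.24, adjusted p = 4.14e-05). Derl3 rested on 2 UMIs in pDC (ratio 0.299, 95% counting interval 0.0361 to 1.08), its call was lost under RLE size factors (adjusted p = 0.0751) and without the library block (0.161), and the log2 difference was -0.58 without library 1. Hsp90b1, at 998 and 1068, did not pass (log2 0.11, adjusted p = 0.518). The other pathway genes Cebpb (log2 2.35, adjusted p = 2.09e-09), Phgdh (log2 2.31) and Sec24d (2.03) were higher, and Atf3 (-2.65) lower. T cell markers summed to 374 to 404 CPM in pDC against 7.84 to 8.003 in resting cDC1, B cell markers to 67.2 to 141 against 13.6 to 17.6 and plasma cell markers to 1362 to 1928 against 554 to 564. Immunoglobulin genes took 0.305% and 0.223% of UMIs in pDC against 0.0302% and 0.0286%, and 12 of the 13 immediate early or heat shock genes were lower. The part of these in the result was not tested.

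Plasma cells held the highest Xbp1 RNA of the classes. Their immunoglobulin genes took 59.4% and 53.6% of all UMIs, against 1.67% and 1.63% in B cells, which lowers the CPM of every other gene. For members, levels without immunoglobulin genes are therefore given beside the plain ones. The test scaled this away with normalization factors of 0.433 and 0.524 for the plasma cell sums. Against B cells, 26 of 31 members were higher and 0 lower, where 15.8% of all genes were called, and the median log2 difference was 2.75 (2.50 with Ern1 set at its bound) against 0.06. All 10 ATF6-type and 14 of 15 XBP1-type genes were higher, and 0 of 3 ATF4-type genes were called. Scaled by library totals alone, 22 members were higher and 3 lower.

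Xbp1 was at 564 and 473 CPM in plasma cells (1388 and 1020.3 without immunoglobulin genes) and at 44.3 and 29.7 in B cells (45.1 and 30.1 without them; log2 5.12, SE 0.25, adjusted p = 2.18e-20). Derl3 was at 251 and 173 (619 and 372) against 6.82 and 7.41 (log2 6.25, SE 0.39, adjusted p = 1.40e-16), and its log2 difference without library 1 was 5.64. Edem1 was at 396 and 357 (974 and 769) against 40.9 and 29.7 (log2 4.72, SE 0.21, adjusted p = 3.13e-21). Hsp90b1 reached 1828 and 2136 (4498 and 4604), the highest level of any member in any class, against 338 and 389 (log2 3.78, SE 0.14, adjusted p = 1.83e-24).

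Sdf2l1 was at 302 and 256 (742 and 551 without immunoglobulin genes) against 44.3 and 33.4 (log2 4.17, SE 0.30, adjusted p = 8.32e-15). Ern1 had 13 UMIs in plasma cells and 0 in B cells, at least 2.47-fold higher against a floor of 3 UMIs over the B cell group (adjusted p = 9.10e-04), a call lost in cells of 3000 to 15000 UMIs (0.0644). Atf4 (log2 0.31, adjusted p = 0.382), Ddit3 (log2 0.33, adjusted p = 0.75), Ppp1r15a (log2 -0.34, adjusted p = 0.444) and Eif2ak3 (log2 -0.29, adjusted p = 0.816) did not pass. The folding enzyme Txndc5, at 1198 and 953 against 81.9 and 63.01 (log2 5.21, adjusted p = 5.58e-26), Edem2 (log2 4.64) and Sec24d (27 UMIs against 1) were higher, as was Atf5, which had 14 UMIs in plasma cells and 0 in B cells. Erythroid markers summed to 37.5 to 2746 CPM over the 2 B cell libraries, so red cell RNA was high in 1 of them, and its part in the result was not tested.

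Against resting immature cDC1, plasma cells were higher in 25 members and lower in 1, where 25.0% of all genes were called, with a median of 1.54 against -0.02. Derl3 (log2 5.11), Xbp1 (4.59), Edem1 (4.08), Pdia4 (3.44) and Spcs2 (2.58) led, with Pdia4 at 376 and 279.9 (925 and 603 without immunoglobulin genes) against 71.96 and 53.1 (log2 3.44, SE 0.13, adjusted p = 1.46e-24). Pdia5 was lower, at 10.9 and 24.4 (26.9 and 52.6) against 136 and 131 (log2 -1.84, SE 0.31, adjusted p = 1.02e-05), and the log2 difference was -2.53 without library 2. Hspa5 shows what scaling does here: at 816 and 917 CPM it was below the resting cDC1, without immunoglobulin genes it was at 2007 and 1976, and the log2 difference was 0.70 in the test (adjusted p = 6.76e-06) but -0.34 under library totals alone (0.0143). The directions of Atf6, Herpud1, Derl2, P4hb and Sdf2l1 turned in the same way, and 15 members were then higher and 5 lower.

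Counted per cell, plasma cells held 25.3 and 31.6 Hsp90b1 UMIs, resting cDC1 6.61 and 5.45 and late mature cDC1 1.33 and 1.31. Xbp1 was at 7.82 and 7.0 UMIs per plasma cell and 0.391 and 0.330 per resting cDC1. Hspa5 was at 11.3 and 13.6 per plasma cell and 10.0 and 7.91 per resting cDC1. Median depth per cell was 13739 and 13632 UMIs in plasma cells and 8698 and 7772 in resting cDC1. Outside the members, Txndc5 (log2 5.46), Phgdh (3.99), Txndc11 (3.97) and Edem2 (3.84) were higher.

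Plasma cells were also set against late mature cDC1. Here 25 members were higher in plasma cells and 1 lower, where 33.9% of all genes were called, with a median of 2.55 against 0.13, and 21 were higher and 6 lower under library totals alone. Xbp1 was at 9.30 and 25.6 in late mature cDC1 and 564 and 473 in plasma cells, or 1388 and 1020.3 without immunoglobulin genes (log2 5.79, SE 0.23, adjusted p = 3.02e-23). Its log2 difference was 5.10 without library 1 and 6.74 without library 2. Pdia4 (log2 5.77), Creld2 (4.54) and Hsp90b1 (4.39) followed, and Derl3 had 207 UMIs in plasma cells and 2 in late mature cDC1, at 0.00796 of the plasma cell level there (95% counting interval 0.000958 to 0.0291, log2 difference 11.06 without library 1 and 6.86 without library 2). Ppp1r15a was the lower member, at 69.97 and 56.4 in plasma cells, or 172 and 121 without immunoglobulin genes (log2 -1.71, SE 0.21, adjusted p = 7.25e-09). Txndc5 (log2 6.98), Edem2 (5.09), Phgdh (5.01) and Lman1 (4.61) were higher in plasma cells. Of the 69 plasma cells, 14 also met the cDC1 antibody thresholds and were counted as plasma cells only.

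Hspa5 also varied strongly from cell to cell among resting immature cDC1. Each cell was thinned to 4000 UMIs, which 3391 of 3791 and 5336 of 6053 cells allowed. Hspa5 then ran from 0 to 37 UMIs in library 1 and 0 to 47 in library 2, with a median of 3 in both. Its variance was 5.39 and 5.06 times its mean, higher than for 99.6% of genes with a mean of at least 0.1 in library 1, whose median ratio was 1.05. Hsp90b1 (3.54 and 3.23 times) and Manf (3.15 and 2.73 times) varied strongly too, while Sec61b, at a mean of 3.25 and 3.01 UMIs, had ratios of 1.40 and 1.38.

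The cells with the most Hspa5 (351 cells of at least 12 UMIs in library 1, 561 of at least 10 in library 2) were set against cells at or below the median (1867 and 3287). These are ranges of a graded count and not cell types: 60 and 86 cells sat at the minimum, 58 and 103 were 1 UMI below it, and 1173 and 1488 lay between the arms. Hspa5 itself was left out of the test, which rests on 4 sums, 1 for each arm in each library, of cells chosen by a member. Of the other 31 members, Trib3 now included, 28 were higher and 1 lower, where 15.0% of 10095 genes were called, and the median log2 difference was 1.46 against 0.00. The 28 include Trib3, which passed the filter on low counts only through the Hspa5-high cells. All 9 remaining ATF6-type and all 15 XBP1-type genes were higher, and 28 members were also higher with RLE size factors and with library totals alone.

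Manf was at 1363 and 1146 CPM in Hspa5-high and 182 and 183 in Hspa5-low cells (log2 2.67, SE 0.048, adjusted p = 3.12e-73). Creld2 was at 447 and 333 against 44.9 and 48.2 (log2 2.92, SE 0.071, adjusted p = 2.91e-61), Pdia4 at 235 and 177 against 28.9 and 25.1 (log2 2.81, SE 0.087, adjusted p = 1.81e-51) and Derl3 at 68.7 and 49.7 against 2.95 and 3.65 (log2 3.96, SE 0.19, adjusted p = 1.18e-34). Xbp1 (log2 1.36), Dnajb9 (1.83), Edem1 (1.35), Sel1l (1.29) and Herpud1 (1.62) were all higher, of which Xbp1 was lower and Sel1l and Herpud1 higher in late mature cDC1. Pdia5, which set cDC1 apart from cDC2, was higher by little (log2 0.36).

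The ATF4-type members split. Ddit3 was at 83.7 and 66.6 against 13.5 and 14 (log2 2.31, SE 0.14, adjusted p = 2.42e-28) and Atf4 at 309 and 269.7 against 147 and 151 (log2 0.84, SE 0.062, adjusted p = 4.39e-22). Trib3 was at 8.58 and 10.3 against 0.134 and 0.228, resting on 1 and 3 UMIs in the low cells, with log2 differences of 4.78 without library 1 and 4.52 without library 2. Since it passed the filter on low counts only through the high cells, its direction was fixed by that filter and its call is no support. Ppp1r15a was at 119 and 119.9 against 127 and 131 and did not pass (log2 -0.21, SE 0.077, adjusted p = 0.0569). Of the other ATF4 targets 13 of 16 were higher and 0 lower, with Asns, which makes asparagine, at 22.9 and 13.4 against 0.268 and 0.837 (log2 4.61), and Atf5 (log2 3.76), Nupr1 (3.46) and Phgdh (3.44) beside it. Asns, Atf5 and Nupr1, counted among the 13, likewise passed the filter only through the high cells, so their direction was fixed by it. Nupr1 rested on 5 and 6 UMIs in high and 0 and 5 in low cells, and Asns on 2 and 11 UMIs in low cells. DESeq2 gave no adjusted p for Trib3, Asns, Atf5 and Nupr1. Of the other ER folding and translocation genes 33 of 39 were higher and 0 lower.

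Among the sensors, Atf6 was higher (log2 0.45, adjusted p = 0.00347) and Ern1 lower, at 7.87 and 7.60 against 12.2 and 12.5 (log2 -0.78, SE 0.28, adjusted p = 0.0417), a call lost without the library block (adjusted p = 0.0972) and at 6000 UMIs per cell (0.297). Eif2ak3 did not pass (log2 0.31, adjusted p = 0.517). Median total UMIs were 9192 in high and 8938 in low cells of library 1 and 7897 and 8077 in library 2, and mitochondrial UMIs 1.07% and 1.05%, and 1.05% and 1.09%. Immediate early and heat shock genes summed to 5469 to 6233 and 5720.4 to 6216 CPM in high and low cells, with 1 of 13 higher and 6 lower. Erythroid markers summed to 23.6 to 46.5 in high and 97.9 to 169 in low cells, and cDC1 markers to 4865 to 5194 and 5537 to 6056. Plasma cell markers summed to 584 to 614 and 546 to 559. The plasma cell list includes the member Derl3, at 68.7 and 49.7 CPM in high and 2.95 and 3.65 in low cells. The part of these sums in the result was not tested.

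Cells were also binned more finely by Hspa5, as a description. In cells with 0 or 1 Hspa5 UMI, Manf was at 147 and 156 CPM, with 4 to 6 at 342 and 342, and with 20 or more at 1509 and 1335. Creld2 ran from 39.1 and 38.5 through 83.4 and 95.2 to 575 and 446 over the same bins, and Ddit3 from 13.03 and 12.8 through 17.1 and 17.9 to 134 and 89.8. Ppp1r15a was at 125 and 136 in the lowest bin and 169.8 and 141 in the highest, which held 77 and 84 cells.

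**Figure D4:**
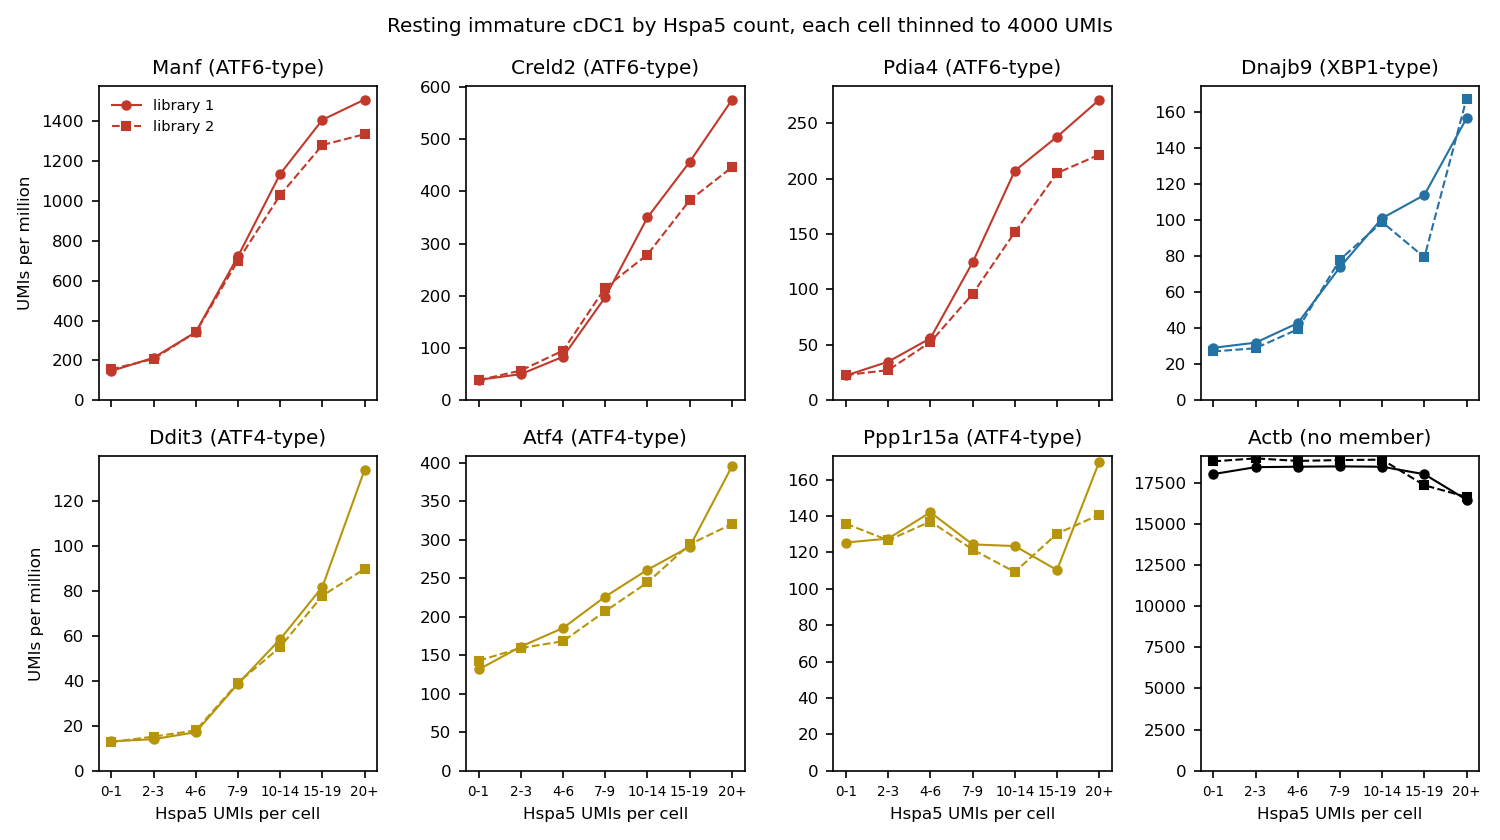
Levels (CPM) of 7 members and Actb (1 panel each) in resting immature cDC1 grouped by Hspa5 UMIs per cell, each cell thinned to 4000 UMIs, with library 1 as circles and library 2 as squares. Manf, Creld2, Pdia4, Dnajb9, Ddit3 and Atf4 are higher in the highest than in the lowest bin in both libraries, while Ppp1r15a ends at 169.8 and 141 after 125 and 136 in the lowest bin; these are descriptions of cells and carry no test.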

How the data were processed

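Per the labels, libraries were made with 10x 3′ chemistry and 160 antibodies plus 9 isotype controls. Per the submitters' processing notes, Cell Ranger, STAR and Seurat 3.1.4 were used with mm10, and the file header names Cell Ranger 3.1.0. The authors deposited UMI counts per gene and antibody in 1 matrix, unnormalized, for both libraries, told apart by barcode suffix and not matched to replicate labels. Cells with at least 500 genes, 1000 UMIs and under 10% mitochondrial UMIs were kept, and doublets called with Scrublet (scanpy 1.11.5) were removed, 4.30% and 6.24%. Ddit3 had 2 rows, of which 1 held no UMIs. The UMIs of each class were added up within a library, and the sums were tested in edgeR 4.0.16 (R 4.3.3; TMM, filterByExpr, library block, two-sided), in 1 fit of 12 classes, after a check on simulated data. Gate genes were left out. SE is the log2 difference divided by the root of F.

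The members, lists and gates were chosen with earlier results of these data known. In each comparison the text names the 5 members with the largest called difference in each direction, sensors and ATF4-type members at the cDC1 steps, and at most 4 other pathway genes; others are named as context. Classes of 1 library share a source: deviations of same-library classes correlated at a median of 0.05 (-0.02 to 0.66, 66 class pairs), and the block rests on that shared library. Intervals and floors (3 UMIs) cover counting error only. Alternatives were other scalings (library totals and RLE size factors, both in edgeR), DESeq2 1.42.0, no block, no filter, 1 library, doublets kept, depth limits and other gates.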

Additional observations from a re-analysis of the deposited data

Results flagged for a closer look

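For 4 members the change from immature to late mature cells differed between cDC1 and cDC2 in the test of that difference (edgeR, 2 libraries, 31 late mature cDC2 in all). Of all genes, 4.91% were called in that test. The log2 change in cDC1 minus that in cDC2 was -0.90 for Hspa5, -1.95 for P4hb, 1.99 for Sel1l and 1.19 for Ppp1r15a. In that test the change was lower in cDC1 than in cDC2 for Hspa5 and P4hb, a chaperone and a folding enzyme, and higher for Sel1l and Ppp1r15a. With doublets kept, the calls of Hspa5 (difference -0.24, adjusted p = 0.667) and P4hb (adjusted p = 0.0665) were lost. The Sel1l call was lost with RLE size factors (adjusted p = 0.0565). Late mature cDC2 rested on 18 and 13 cells, and the part of that depth in the differences was not tested.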

How the results depend on the processing

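Values for named genes stayed the same in 1934 of the cases recomputed, lost the call in 109, gained it in 13 and turned in 2. Staying the same means keeping the direction and, where a p-value was computed, the side of the threshold. Values from 1 library carry no p-value, so 166 of these cases without library 1 and 168 without library 2 kept the direction only. The turned values were those of Nupr1 without library 1, -5.60 between late mature and immature cDC2 (4.67 without library 2) and 6.34 between the late mature classes (-5.42 without library 2). Counts of members called ran from 18 to 28 in late mature cDC1, 11 to 24 in intermediate, 10 to 22 in Ccr7-positive, 0 to 5 in Ccr7-low, 0 to 8 in Ccr2-high and 14 to 21 in cycling cDC1, 24 to 27 in immature cDC2, 10 to 13 in pDC, 19 to 29 in plasma cells against resting cDC1 and 25 to 30 in the Hspa5 comparison.

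Counts moved by more than 1.5 times in the following cases, whose cause was not tested. With XCR1 at least 6, 1894 genes were called in late mature cDC1 (4479 otherwise), 10 members and 1787 genes in Ccr7-positive cDC1 (3091), 0 members and 503 genes in Ccr7-low cDC1 (988), and 108 genes in Ccr2-high cDC1 (456). With XCR1 at least 1, chosen after seeing the data, 22 members and 3065 genes were called in intermediate (1739), 5 and 1917 in Ccr7-low, 6 and 1078 in Ccr2-high cDC1, 6 and 823 between the late mature classes (409), and 873 genes (462) in the difference of changes. With steps doubled, 24 members and 3359 genes were called in intermediate, 2 members in Ccr7-low and 4 in Ccr2-high cDC1. In cells of 3000 to 15000 UMIs, 0 members and 440 genes were called in Ccr7-low cDC1, 2 members in Ccr2-high cDC1 and 740 genes between plasma and B cells (1490). With doublets kept, 3 members were called in Ccr2-high cDC1, 6 members and 626 genes between the late mature classes and 2 members in the difference of changes. A Ccr2 threshold of 2 gave 8 members and 948 genes, and 5 gave 0 and 104. DESeq2 gave 0 members and 633 genes in Ccr7-low, 2 members in Ccr2-high cDC1 and 416 genes in the Hspa5 comparison (1512). The purer classes gave 2 members in Ccr7-low cDC1.

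Without the replicate block, 0 members and 537 genes were called in Ccr7-low cDC1, 237 genes in Ccr2-high cDC1 and 636 genes in the Hspa5 comparison. RLE size factors gave 2 members in Ccr2-high cDC1. Library totals alone gave 6 there, 1 between the late mature classes, 4275 genes between plasma and B cells and 5356 between plasma cells and resting cDC1 (2351). Library totals moved the share of higher calls over all genes from 62.6% to 5.57% for plasma against B cells, 53.9% to 15.5% against late mature cDC1, 55.6% to 11.5% against resting cDC1, 51.3% to 74.4% for pDC, 41.7% to 62.8% for cycling, 31.1% to 57.7% for Ccr2-high, 70.6% to 91.6% for Ccr7-low cDC1, 45.5% to 62.7% for immature cDC2, 63.8% to 32.7% between late mature classes and 49.1% to 72.6% in the Hspa5 comparison. The median over all genes moved with them from 0.06 to -1.23, 0.13 to -0.81 and -0.02 to -1.05 for plasma cells, and -0.02 to 0.35 for pDC. RLE size factors moved the share from 48.9% to 60.5% in intermediate cDC1. Classes of 24 cells a library or fewer limit what could be called.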
